A study of Mus musculus with 12 samples.

Results

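The spleens of 4 saline-injected mice, 2 taken on day 14 and 2 on day 28, are described here out of the 12 spleens of the series. They were chosen by their labels alone: the saline controls of the 2 days. All mice were female BALB/c, an inbred albino strain, and were 6 weeks old at the start. The saline mice received 3 intraperitoneal injections of normal saline, on days 1, 3 and 5. The other 8 mice, 4 on each day, received OVA (ovalbumin, the antigen) in that vehicle at 2 mg/kg on the same days. All 12 samples also carry a time of 2 hours before sacrifice, and the step it refers to is not described here. The labels name no deleted gene, no transgene and no pooling of animals. Each sample is total RNA of a whole spleen on 1 single-colour Agilent array. The 4 saline arrays lie on 1 slide, day 14 at positions 1 and 2 and day 28 at positions 3 and 4. Within these 4 arrays, day and position on the slide therefore cannot be told apart. In bulk tissue of this kind, fewer cells of a type and less RNA per cell cannot be told apart.

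The spleen filters blood and holds B cells, T cells, macrophages and, in mice, blood-forming tissue. Long non-coding RNAs are transcripts that are not translated into a protein of known function. Some are the parents of small RNAs: snoRNA host genes carry small nucleolar RNAs in their introns, and miRNA host genes carry microRNAs. Others mark gene regulation at imprinted loci or on the X chromosome, or change when immune cells are activated.

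The array carries many such transcripts, beside catalogue probes that are not known here to be non-coding. A feature below is 1 probe; a named gene enters once, through whichever of its probes has the highest mean. A value is the log2 of the scanner's processed signal minus the 75th percentile of that array, so that 0 is the 75th percentile and a difference of 1 is 2-fold. "Well above background" is the scanner's own flag. The files name no catalogue probe and no NONCODE transcript. Of 13019 RefSeq probes, 4658 matched a RefSeq table of the GRCm38.p6 assembly, giving 4290 genes. None of 83 marker genes of spleen cell types, blood cells, fat or pancreas has a named probe. None was reached through the RIKEN clone name of a tested feature, but clones that failed the detection filter were not searched. Of 15675 RIKEN clones, only 745 have a name listed as a synonym of a gene. The tissue label could therefore not be checked against markers here.

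Depth of signal was alike on the saline arrays: the 75th percentile lay between 316.4 and 345.0 signal units and 72.4% to 79.4% of the spots were well above background. No spot was saturated. The probe pair for the ends of the Gapdh control differed by -2.61 to -2.43 (3′ minus 5′, log2). The pair for Pgk1 differed by 2.67 to 3.04.

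Saline day 14 replicate 1 carries a bright streak. In that region 26.2% of the spots were more than 2-fold above the other arrays, against 3.38% elsewhere. Its 12560 spots, 7.14% of the array, were left out. By this, 1834 features were lost beyond any lost to outlier flags alone.

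Saline day 14 replicate 2 stands apart in another way. On 50 of the 71152 features tested it was at least 4-fold above the other 3 saline arrays, against 5, 2 and 2 features on day 14 replicate 1, day 28 replicate 1 and day 28 replicate 2. Of the 50, 44 are catalogue probes without a name, 3 are NONCODE transcripts, 2 are RIKEN clones and 1 is a RefSeq transcript. The name of 1 clone is listed as a synonym of Zg16 (chr7:127050156-127052675, GRCm38.p6), which encodes a protein of the zymogen granules of the exocrine pancreas. Its probe read 3.31 on day 14 replicate 2, but -3.83 on day 14 replicate 1, -4.46 on day 28 replicate 1 and -4.75 on day 28 replicate 2. The array that is high is therefore 1 of the 2 of its day, and the other day 14 spleen reads far below it for this probe.

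The OVA arrays, which were not used to pick these 50 features, split in the same manner. The Zg16 clone read 3.41, 2.81 and 4.54 on OVA day 14 replicates 1, 2 and 4, and -4.59 on replicate 3. On OVA day 28 it read 0.13 on replicate 2 and -5.27 to -4.56 on the other 3. Of the 50 features, 46 (92.0%) were higher on those 4 OVA arrays than on every one of the other 4 OVA arrays, a pattern met by 0.773% of all features tested. These 4 OVA arrays were singled out from the values of the same features, so both shares describe the split and do not test it. The median of the 50 was 4.41 on saline day 14 replicate 2 and between -2.68 and -1.79 on the other saline arrays. The transcripts NONMMUT051548 and Gm41237 are exceptions, the 2 of the 50 for which no OVA array came within 2-fold of day 14 replicate 2. NONMMUT051548 read 4.46 on day 14 replicate 2 and between -2.68 and -1.77 on the other 11 arrays. Gm41237, the RefSeq transcript of the 50, read -1.63 on day 14 replicate 2 and between -5.09 and -3.05 on the other 11 arrays. The part of this library in the comparison of the days was not tested beyond leaving it out, and values with and without it are given.

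**Figure D1:**
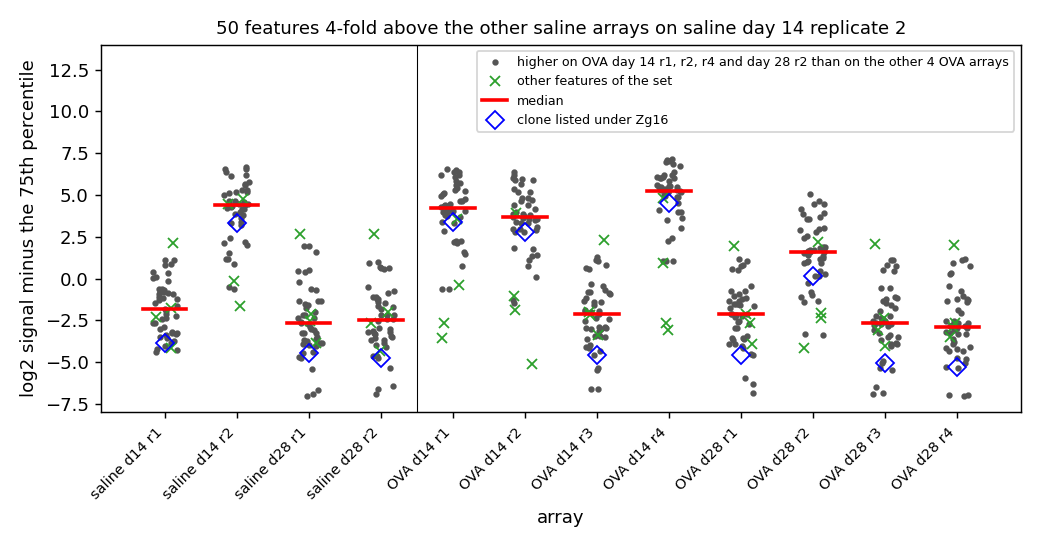
Values (log2 signal minus the array's 75th percentile) of the 50 features that were 4-fold above the other saline arrays on saline day 14 replicate 2, with 1 column an array (d is the day, r the replicate), red bars for medians and diamonds for the clone listed under Zg16. The medians are 4.41 on saline day 14 replicate 2 and 1.60 to 5.27 on 4 OVA arrays, and between -2.87 and -1.79 on the other 7 arrays.

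The baseline profile was broad. Of 95257 features, 65743 (69.0%) were well above background on all 4 saline spleens, 19261 (20.2%) on none and 10253 on some. These counts include 38587 catalogue probes, so 69.0% is not a share of non-coding transcripts alone. The share detected on all 4 was 77.8% for catalogue probes (30022 of 38587), 70.8% for RIKEN clones, 64.5% for NONCODE transcripts, 51.8% for RefSeq non-coding transcripts, 51.0% for Ensembl transcripts and 48.4% for ultraconserved elements (168 of 347). Detection differed between days in few features: 433 were above background on both day 28 arrays and on neither day 14 array, and 209 the other way round. Patterns that mix the days held from fewer to more features: 1139 were detected on day 14 replicate 1 and day 28 replicate 2 only, 932 on both replicate 1 arrays only, 50 on day 14 replicate 2 and day 28 replicate 1 only, and 28 on both replicate 2 arrays only. The larger of these counts both include day 14 replicate 1, which had the highest share of spots above background, and lack day 14 replicate 2, which had the lowest.

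The 12 brightest probes of named genes, a description of the probes and not a ranking of RNA levels, belong to Prmt6, Snhg9, Rpph1, Kis2, Trim52, Celrr, Esr2, AW112010, Norad, Phxr4, Marcksl1-ps4 and Tincr. Rpph1 is the RNA subunit of ribonuclease P, which trims transfer RNA precursors. It read 5.72 and 5.65 on day 14 and 5.74 and 5.93 on day 28. Prmt6, a gene of an arginine methyltransferase represented here by a non-coding transcript, read 6.70 and 6.59 on day 14 and 6.61 and 6.75 on day 28. Norad, which binds Pumilio proteins, read 3.31 and 2.83 on day 14 and 3.43 and 2.97 on day 28. The days overlap for Prmt6 and Norad; for Rpph1 both day 28 spleens are higher, 1 of them by only the last digits shown.

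Spleens of the same day were about as far apart as spleens of different days. Over the 65743 features detected on all 4 arrays, the median absolute difference was 0.199 between the day 14 spleens and 0.176 between the day 28 spleens, and 0.181 to 0.201 for the 4 pairs across days. The 2 spots of a probe on 1 array differed by 0.094 to 0.107 (median). The share of features at least 2-fold apart was 1.21% within day 14, 0.342% within day 28 and 0.686% to 1.66% across days. Pearson's r over features was 0.987 to 0.992 for all 6 pairs; features are not independent replicates.

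**Figure D2:**
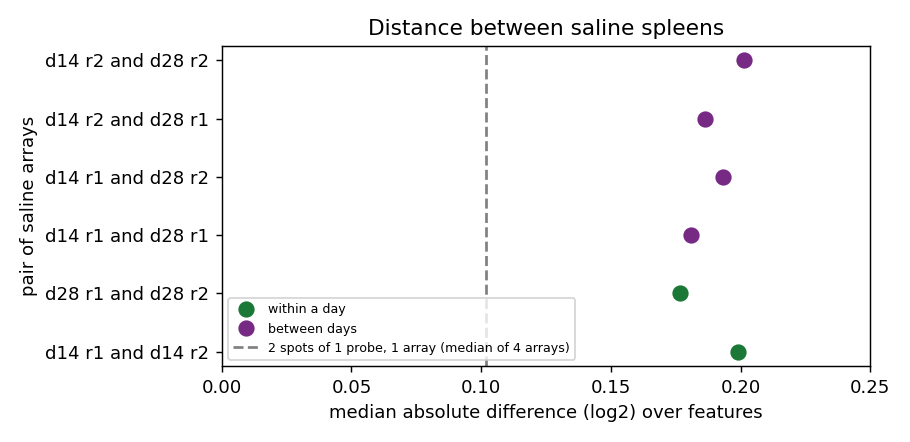
Median absolute difference (log2, horizontal axis) over 65743 features for each pair of saline arrays, green within a day and purple between days (d is the day, r the replicate); the dashed line is the median gap between 2 spots of a probe on 1 array. The within-day pairs lie at 0.176 and 0.199 and the between-day pairs at 0.181 to 0.201.

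The median SD within a day was 0.162 for saline, with 2 arrays a day, and 0.150 for OVA, with 4 arrays a day. A median SD runs lower when fewer arrays enter it, so these values do not show that saline spleens varied as little. The median size of the day difference in saline was 0.143. Among saline spleens the SD fell from 0.202 in the dimmest of 4 equal classes of features to 0.142 in the brightest. By class it was 0.161 for catalogue probes, 0.163 for NONCODE, 0.162 for RefSeq non-coding, 0.164 for RIKEN clones and 0.186 for ultraconserved elements, of which 18 of 168 (10.7%) spanned over 2-fold across the 4 spleens, against 3.71% of all features.

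Among the 150 genes that were detected on all 4 spleens and have no provisional name (of the Gm or Rik kind), the narrowest ranges were those of Lincred2, Snhg9, Gt(ROSA)26Sor, Khdrbs1, Gsdmcl-ps and Mirc35hg. Lincred2 read 0.92 and 0.92 on day 14 and 0.94 and 0.93 on day 28. Gt(ROSA)26Sor, the locus widely used to insert transgenes because it is active in most cells, read -2.21, -2.28, -2.21 and -2.27 in the order day 14, day 28. The widest of the 150 were Ptprtos, Vmn2r29, Pdxk-ps, Vmn2r-ps54, Speer4cos and Bambi-ps1, with ranges of 1.08 to 1.59. Bambi-ps1, a pseudogene of the TGF-beta pseudoreceptor Bambi, read 2.48 and 1.39 on day 14 and 2.06 and 2.21 on day 28, so its width comes from 1 day 14 spleen.

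Day 28 was then compared with day 14 to ask whether the control spleen itself changes over the study. With limma's moderated test over all 12 arrays and Benjamini-Hochberg adjustment, 1 of 71152 features (0.00141%) passed an adjusted p of 0.05, and none fell. Before adjustment 6192 features (8.7%) had a limma p under 0.05, 3370 higher and 2822 lower at day 28. Where days do not differ, a share of 0.05 would have such a p. The 8.7% lies above that share, but features are not independent and the excess was not tested. The days did not overlap on 36.3% of the features, 17.7% higher and 18.6% lower at day 28, and the median difference was -0.01. Where days do not differ, 2 arrays against 2 are without overlap in a share of 0.333. The 36.3% lies near that share. The median standard error of a difference was 0.17. An exact permutation test of 2 against 2 cannot go below p = 0.333, so the calls rest on a spread pooled over the 4 groups. The labels do not name litters or cages, and each p-value measures the spread between these spleens and arrays only.

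The feature that passed is the catalogue probe A_55_P2039284, which the files do not name. It read 0.61 and 0.52 on day 14 and 2.18 and 2.34 on day 28, and its 2 spots gave 0.51 to 0.62 on day 14 and 2.14 to 2.38 on day 28. The day 28 spleens are both high and the days do not overlap. The difference was 1.70 ± 0.15 (SE; 2 arrays a day), or 3.24-fold, with a limma adjusted p of 0.0108. In OVA spleens the same probe read 0.70 to 1.18 on day 14 and 1.31 to 1.43 on day 28, a difference of 0.39. The call was lost with the saline arrays alone (limma adjusted p = 0.294) and with the array's position on the slide as a block (limma adjusted p = 0.939). That block can be estimated only through the OVA arrays, because the saline days share no position. Leaving out day 28 replicate 1 lost the call as well.

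The next feature, A_55_P2071646, also a catalogue probe, read -0.63 and -0.73 on day 14 and 0.87 and 1.32 on day 28. Its difference was 1.78 ± 0.22 (SE), with a limma adjusted p of 0.102. In OVA spleens it read -0.78 to -0.23 on day 14 and 0.20 to 0.52 on day 28. Both probes are thus higher on day 28 in each treatment, but the OVA days lie on different slides, and day and slide cannot be told apart there.

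Differences of 2-fold or more were found in 416 features (0.585%), 121 higher and 295 lower at day 28. A feature could be tested through detection in 1 group alone, so features near background on 1 day are among the 416. Of the 65743 features detected on all 4 saline spleens, 161 (0.245%) differed 2-fold or more. Of the 295, 56 had day 14 replicate 2 at least 2-fold above the other 3 spleens and 13 had day 14 replicate 1 so. The lowest difference of all, -7.29, belongs to the catalogue probe A_51_P504538, which read -4.06 and 5.29 on day 14 and -6.93 and -6.43 on day 28. That probe was well above background on only 2 of the 4 saline spleens. In 29 features both day 28 spleens lay 2-fold above both day 14 spleens, and in 45 both lay 2-fold below; 14 of the 45 and 0 of the 29 belong to the 50 features high on day 14 replicate 2. With day 14 replicate 2 left out, 178 features were 2-fold higher and 715 lower; with day 14 replicate 1 left out, 502 and 291. With day 28 replicate 1 left out these were 236 and 282, and without day 28 replicate 2 they were 165 and 771. Which way the 2-fold differences lean thus changed with the spleen left out. The limma count of calls was 7 without day 14 replicate 1, 11 without day 14 replicate 2, 2 without day 28 replicate 1 and 11 without day 28 replicate 2, where 1 spleen stands for its day and is assumed to vary like the other groups.

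No named gene passed. The lowest limma adjusted p of a gene with any name, provisional names included, was 0.337, shared by 9030612E09Rik, a lncRNA gene inside Sobp, and Gm33566, a lncRNA gene that overlaps Cd70, the ligand of the T cell co-receptor CD27. Gm33566 (chr17:57148802-57171792, GRCm38.p6) read -1.94 and -1.70 on day 14 and -3.21 and -2.82 on day 28. Both day 28 spleens are lower. The 2 genes were picked after their values were seen.

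Of 150 named genes detected on all 4 saline spleens and open to the naming rule, 28 were without overlap and higher at day 28, and 27 without overlap and lower. That is 55 of 150, beside 36.3% of all features. The 10 with the largest differences upward were Pdxk-ps, Nr6a1os, Ino80dos, Aopep, Nlrp1c-ps, Mtag2, Gata6os, Lncpint, Appbp2os and Scnn1b. Their differences ran from 0.30 to 0.67, with standard errors of 0.13 to 0.28 and limma adjusted p-values of 0.501 to 0.642. Lncpint, a lncRNA that p53 induces, read 1.28 and 1.35 on day 14 and 1.69 and 1.55 on day 28. In OVA spleens Lncpint read 1.57 to 1.84 on day 14 and 1.28 to 1.58 on day 28, a difference of -0.31 (limma adjusted p = 0.0252). The test of OVA against saline day differences gave a limma adjusted p of 0.0628.

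Aopep, which encodes an aminopeptidase and is represented here by a non-coding transcript, read 1.87 and 1.64 on day 14 and 2.04 and 2.18 on day 28. OVA spleens gave 1.70 to 2.05 and 2.18 to 2.48. Aopep and the lncRNA gene Mtag2 passed the limma test between the OVA days (adjusted p = 0.00519 and 0.00327) in the direction of their saline differences. Pdxk-ps, a pseudogene of pyridoxal kinase, read -2.83 and -2.80 on day 14 and -2.65 and -1.63 on day 28, so that 1 day 28 spleen carries most of its difference. Nr6a1os, which lies opposite the nuclear receptor gene Nr6a1, had 3 probes that disagreed: the one used gave 0.48 and the other 2 gave -0.06 and -0.15.

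The 10 of these genes with the largest differences downward were Ptprtos, Vmn2r29, Sprr2g, Speer4cos, Vmn1r-ps79, Dmrta2os, Speer5-ps1, Klk1b7-ps, Serpina3h and Morf4l1-ps1. They ran from -0.98 to -0.36, with standard errors of 0.13 to 0.49 and limma adjusted p-values of 0.417 to 0.715. Many are pseudogenes or members of families with near-identical copies (vomeronasal receptors, Speer genes, kallikreins, serpins), and which copies a probe reads is uncertain. Dmrta2os, opposite the developmental regulator Dmrta2, read -2.97 and -3.14 on day 14 and -3.81 and -3.50 on day 28, a difference of -0.60 ± 0.15 (SE). Ptprtos read -2.44 and -3.08 on day 14 and -4.03 and -3.44 on day 28. Serpina3h, a pseudogene of the serpin family, read 1.76 and 1.91 on day 14 and 1.55 and 1.38 on day 28.

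Day 28 replicate 1 was the lower of the day 28 spleens for 8 of these 10, all but Sprr2g and Serpina3h. The choice of these genes fixes that a day 28 spleen is the lowest of all. Among all features tested, where any of the 4 spleens can be lowest, 25.9% were lowest on day 28 replicate 1. That share is therefore no comparator for the 8 of 10, and the share among features chosen in the same way was not counted. Between saline and OVA, the 10 upward genes had the same sign in 6 cases and the 10 downward genes in 8, beside 60.8% of all features. Of the 20, 6 passed the limma test between the OVA days, 4 in the same direction as in saline, beside 35.6% of all features called there.

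**Figure D3:**
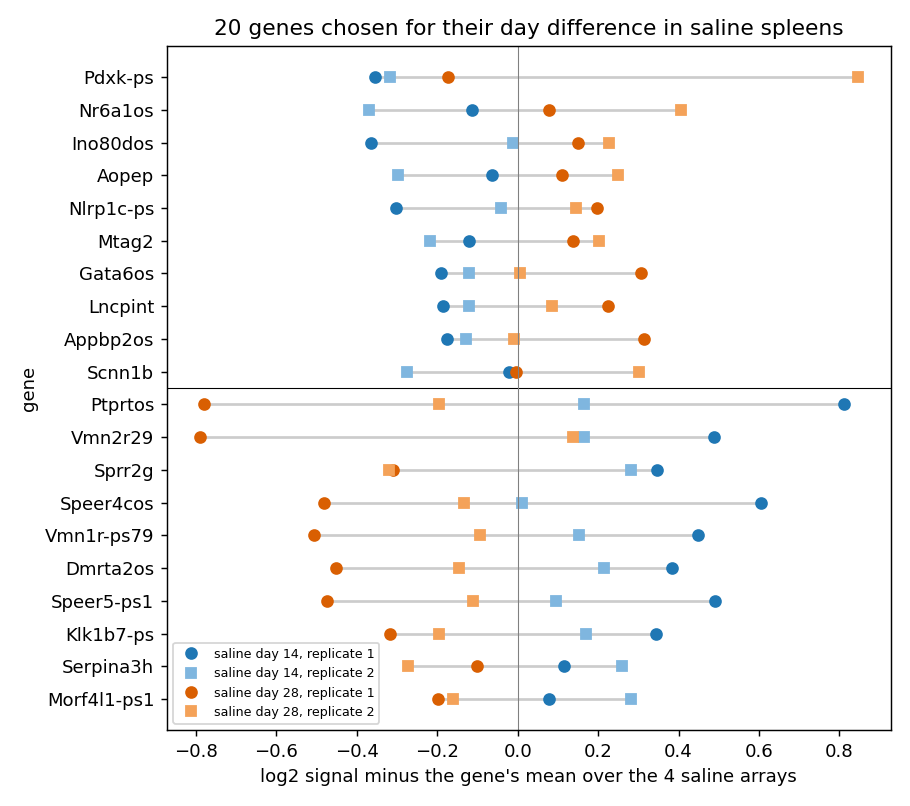
Of the genes detected on all 4 saline spleens, without overlap of the days and without a provisional name, the 10 with the largest differences upward (top) and the 10 downward (bottom) at day 28; points are the 4 saline arrays (blue for day 14, orange for day 28, circles for replicate 1, squares for replicate 2) as log2 signal minus the gene's mean over the 4. The days do not overlap for any of the 20, which the choice of genes fixes; differences run from -0.98 to 0.67.

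The same features were set beside the OVA spleens. The 2 day differences share no array, but the standard error of the saline test pools the spread of the OVA arrays as well. The day difference had the same sign in saline and OVA for 60.8% of all features, and for 73.7% of the 6192 with an unadjusted saline p under 0.05, a choice in which the OVA spread took part. By direction the latter share was 69.0% for features higher and 79.4% for those lower at day 28. Over all features Pearson's r was 0.38, and 0.32 without the 50 features high on day 14 replicate 2. The points share the array design and each set of days its own arrays, and no p is given. Between the OVA days 25300 features (35.6%) passed the limma test. That comparison has 4 spleens a day and lies across slides.

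**Figure D4:**
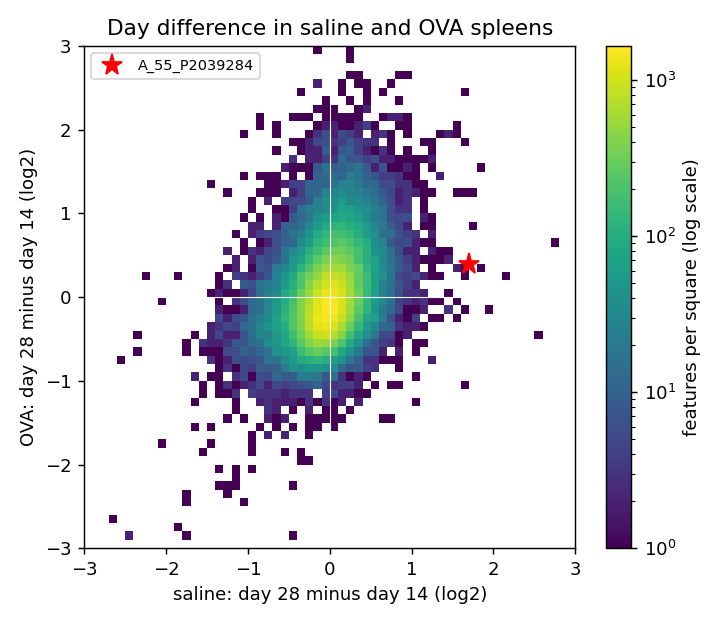
Day 28 minus day 14 (log2) in saline spleens (horizontal axis) and in OVA spleens (vertical axis), with colour for the number of features in each square on a log scale; 37 features lie outside the plotted limits of 3. The star is A_55_P2039284, at 1.70 in saline and 0.39 in OVA, and the cloud is wider along the OVA axis.

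Among the gene groups, snoRNA host genes were detected throughout. Of 21 listed, 7 have a named probe, and all 7 were well above background on the 4 saline spleens. The annotated start sites of the 7 are shown because these are the best covered family of host genes here, and because translation-linked transcripts of this kind are known to begin in a run of pyrimidines. Each line gives 40 bases before the start and 20 from it on (RefSeq, GRCm38.p6, strand of the gene). Capitals mark TATAAA before the start, and runs of 7 or more C or T that reach into the 15 bases before the start or beyond it.
Snhg3, chr4:132353667-132353726, minus strand: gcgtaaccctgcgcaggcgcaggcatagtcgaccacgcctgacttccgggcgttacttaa
Snhg5, chr9:88522878-88522937, minus strand: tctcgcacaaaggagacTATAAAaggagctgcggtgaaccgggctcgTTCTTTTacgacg
Snhg7, chr2:26640225-26640284, minus strand: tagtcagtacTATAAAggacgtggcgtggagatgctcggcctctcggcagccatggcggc
Snhg8, chr3:123508317-123508376, minus strand: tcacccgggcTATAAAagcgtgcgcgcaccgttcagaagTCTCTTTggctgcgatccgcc
Snhg9, chr17:24719946-24720005, minus strand: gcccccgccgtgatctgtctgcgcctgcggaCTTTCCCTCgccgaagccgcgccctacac
Snhg16, chr11:116671620-116671679, plus strand: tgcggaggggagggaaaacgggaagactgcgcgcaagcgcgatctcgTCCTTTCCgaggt
Snhg18, chr15:32244643-32244702, minus strand: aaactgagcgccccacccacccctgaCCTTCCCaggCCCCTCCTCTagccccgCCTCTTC
TATAAA, searched on the strand of the gene only, stands in 3 of the 7 windows, and in 2.31% of the 32851 start-site windows of the table. A pyrimidine run stands in 5 of the 7, and in 25% of all windows. A match is only a match of letters.

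None of the 7 host genes passed the limma test, beside 1 of 71152 features. Their differences ran from -0.43 to 0.11 with a median of -0.14, beside -0.01 for all features. Snhg9 read 6.22, 6.29, 6.26 and 6.27 on day 14 replicates 1 and 2 and day 28 replicates 1 and 2. Its 4 values are within 0.07 of each other. Snhg3 read 2.50 and 2.22 on day 14 and 2.30 and 1.56 on day 28. Snhg8 read 2.29 and 2.00 on day 14 and 2.21 and 1.73 on day 28, and Snhg5 read 2.41 and 2.08 on day 14 and 2.26 and 1.99 on day 28. For each of the 3, day 28 replicate 2 is the lowest spleen and day 14 replicate 1 the highest. Snhg16 (-0.23, -0.08, -0.11 and -0.47 in the same order) and Snhg18 (-0.67, -0.42, -0.62 and -0.78) were lowest in that spleen as well. Snhg7 was not: it read -0.33 and -0.46 on day 14 and -0.25 and -0.31 on day 28. How many of all features were lowest on day 28 replicate 2 was not counted, so the pattern describes the 7 genes only.

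Among 23 immune cell transcripts 10 have a probe, 8 of them detected on all 4 spleens; 9 were tested and none passed. Their median difference was -0.07. AW112010, a transcript induced in activated immune cells, read 3.60 and 3.56 on day 14, 3.66 on day 28 replicate 1 and 2.96 on day 28 replicate 2. As for Snhg3, a single day 28 spleen is low. Celrr read 3.55 and 3.47 on day 14 and 3.45 and 3.59 on day 28. Morrbid, which controls the lifespan of short-lived myeloid cells, read 1.05 and 1.40 on day 14 and 1.31 and 1.24 on day 28. Trp53cor1, a p53-induced lncRNA known as lincRNA-p21, read -1.39 and -1.52 on day 14 and -1.18 and -1.16 on day 28. Its day 28 spleens are both higher, with a difference of 0.29 (limma adjusted p = 0.597). Ifngas1, the lncRNA beside the interferon gamma gene, read -2.19 and -1.82 on day 14 and -2.11 and -2.23 on day 28, so the days overlap. Dleu2, the host of a leukaemia-associated miRNA cluster, read -3.98 and -5.48 on day 14 and -3.89 and -3.11 on day 28 and was detected on 3 of the 4 spleens. Its day 28 spleens are both higher, 1 of them barely, with a difference of 1.23 ± 0.52 (SE; limma adjusted p = 0.551, unadjusted p = 0.0361). Lncenc1 was detected on none.

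**Figure D5:**
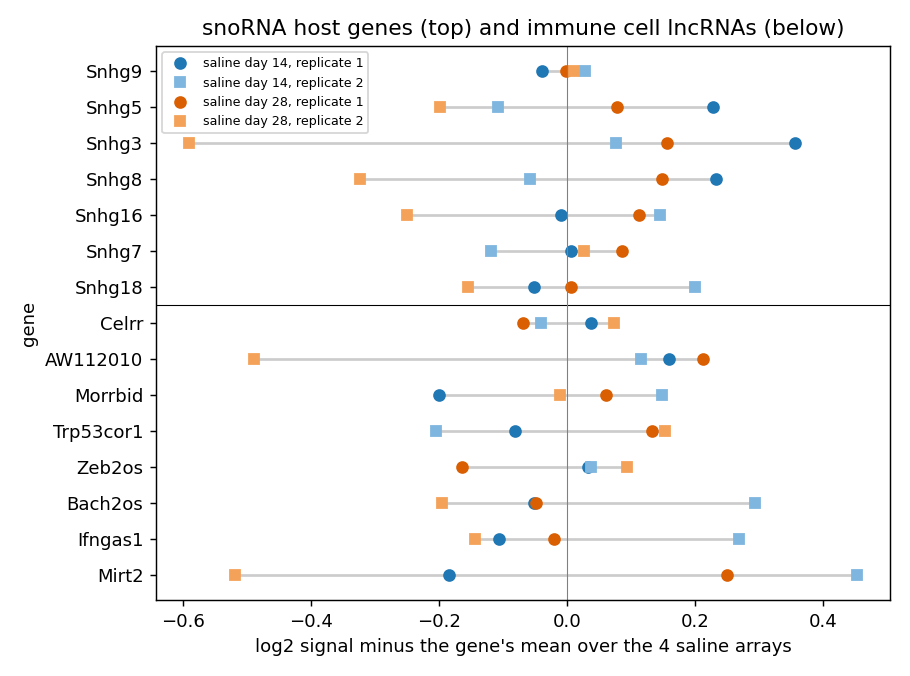
The 7 snoRNA host genes (top) and the 8 immune cell lncRNAs detected on all 4 saline spleens (below) as log2 signal minus the gene's mean over the 4 arrays; blue is day 14, orange day 28, circles replicate 1 and squares replicate 2. Day 28 replicate 2 lies lowest for 5 of the 7 host genes and for immune cell lncRNAs that include AW112010 and Ifngas1, and Snhg9 spans 0.07.

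A probe exists for 6 miRNA host genes, of which 4 were detected on all 4 spleens. Mature miRNAs inside 3 of them are shown, with the seed (bases 2 to 8) in capitals, to say which small RNAs these transcripts would carry; the array measured the host transcript and not the miRNA. Sequences are from RefSeq, GRCm38.p6.
mmu-miR-22-3p, in Mir22hg: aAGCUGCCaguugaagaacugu
mmu-miR-9-5p, in Mir9-3hg: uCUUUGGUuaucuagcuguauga
mmu-miR-182-5p, in Mirc35hg: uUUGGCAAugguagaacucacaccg
mmu-miR-96-5p, in Mirc35hg: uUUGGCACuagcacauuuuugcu
mmu-miR-183-5p, in Mirc35hg: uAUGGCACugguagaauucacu
No 2 of these seeds are identical. Mirc35hg read 1.80 and 1.70 on day 14 and 1.72 and 1.71 on day 28. Mir9-3hg read 1.27 and 1.28 on day 14 and 1.30 and 1.20 on day 28, and Mir22hg read 1.42 and 1.61 on day 14 and 1.60 and 1.65 on day 28. The days overlap for all 3. Mir133a-1hg read -2.78 and -2.95 on day 14 and -2.99 and -3.19 on day 28, and the hosts Mir1a-1hg and Mir217hg, of muscle and pancreas miRNAs, were above background on no saline spleen.

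Among imprinted transcripts, of 15 listed, 7 are on the array and 6 could be used, all detected on the 4 spleens. None passed the limma test, and their median difference was 0.04. Airn, the antisense RNA that silences the Igf2r domain, read -3.43 and -2.60 on day 14 and -2.86 and -2.85 on day 28, a range of 0.84 beside a median range of 0.41 over all features. The day 28 spleens lie between the day 14 spleens. Rian, from the Dlk1 and Meg3 region, read -3.45 and -3.46 on day 14 and -3.26 and -3.31 on day 28. Peg13 read -0.39 and 0.09 on day 14 and -0.41 and -0.18 on day 28. Nctc1, from the H19 and Igf2 region, read -1.65 and -1.55 on day 14 and -1.59 and -1.57 on day 28. Kcnq1ot1, the antisense RNA that silences the Kcnq1 domain, read -2.49 and -2.53 on day 14 and -2.41 and -2.47 on day 28. Its days do not overlap, by a margin below the gap between 2 spots of a probe. Igf2os read -1.46 and -1.90 on day 14 and -1.80 and -1.91 on day 28.

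On the X chromosome, Tsix, the antisense partner of Xist, was above background on none of the saline spleens. Ftx, an activator of Xist, was on all: it read 1.11 and 1.42 on day 14 and 1.19 and 0.99 on day 28. A dimmer Ftx probe gave a difference of 0.45 where the one used gave -0.18. Neat1, a scaffold of nuclear paraspeckles, was above background on no saline spleen with the array's probe.

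Transcripts of developmental regulators were detected less evenly. Of 19 listed, 10 have a probe and 9 could be used; 4 were above background on all 4 spleens and 2 on none. Emx2os read 1.24 and 0.89 on day 14 and 1.11 and 1.34 on day 28. Gata6os, opposite the transcription factor gene Gata6, read -2.52 and -2.45 on day 14 and -2.02 and -2.32 on day 28. Hotair and Hottip, from the Hox clusters, were each detected on 3 of 4 spleens. Of the 7 tested, none passed, and the median difference was 0.16.

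Larger groups were formed by name. Of 40 opposite-strand genes tested 8 were without overlap and higher, beside 17.7% of all features, 11 without overlap and lower, beside 18.6%, and none passed; their median difference was -0.06. Of 28 pseudogenes tested, 9 were higher and 5 lower without overlap, beside the same 17.7% and 18.6%, and none passed, with a median of 0.04. Of 27 tested genes that code for a protein but are probed through a non-coding transcript, 3 were higher and 5 lower without overlap, again beside 17.7% and 18.6%, and none passed, with a median of -0.03. Over 87 genes with several detected probes, the day differences of the probes of a gene were 0.20 apart (median), and in 38 genes they differed in sign. A gap between day differences carries the spread of each probe, so it tends to exceed the size of a day difference. Setting it beside the median size of a day difference over detected features, 0.143, therefore cannot show how well probes of a gene agree.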

How the data were processed

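Spot intensity on a linear scale was deposited for each array; the authors' processed signal was background-corrected by the scanner software, Feature Extraction (version 11.5.1.1 as the file headers give it, 9.1 in the submitters' processing notes). The authors also deposited a log2 table of 39027 probes, which differed from the values computed here by 1 constant for each array. Control spots, outlier-flagged spots and the streak region were left out, log2 signal minus each array's 75th percentile was taken, and spots of a probe were averaged. Features flagged above background throughout 1 or more of the groups were fitted with limma 3.58.1 in R 4.3.3 (4 groups, 8 residual degrees of freedom, eBayes, Benjamini-Hochberg, adjusted p under 0.05). On simulated data for this comparison, with 71152 features, 63% of 2-fold and 96% of 4-fold changes were recovered, and 8 unchanged features were called. These shares hold for the simulated spread only. In the real data 416 features differed 2-fold or more between the saline days, and 1 feature passed.

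Named genes, leaving out provisional names (Gm, LOC, Rik, clones), were the 10 highest and 10 lowest day differences among detected genes without overlap, every feature past the threshold, the 12 brightest probes, the 6 widest and 6 narrowest ranges, and the brightest or undetected members of each group. The members and lists were chosen with earlier results of these data known. The streak region was widened after the array was mapped. As the files used hold no mean signal, normexp was run on the median signal. Alternatives changed the scaling, filter, block, weights, streak and arrays.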

Additional observations from a re-analysis of the deposited data

Results flagged for a closer look

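For A_55_P2039284 the day difference in OVA spleens was smaller than in saline spleens by 1.30 on the log2 scale (OVA minus saline -1.30, limma adjusted p = 0.00893), where the OVA days lie on different slides.

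Within the 4 OVA spleens of day 14, replicate 4 read -2.36 for Ptprtos and lay far above the other 3 (-3.36 to -3.27), and replicate 3 read -0.62 for Morf4l1-ps1, far below the other 3 (-0.09 to -0.04). With 21 features examined in 2 OVA groups, about 1 in 20 such comparisons would meet this criterion by chance.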

How the results depend on the processing

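The count of 1 feature became 2 with quantile normalization, spike-in scaling, the deposited log2 table, normexp, eBayes with trend and robust and the filter on all 12 arrays, and 0 without a filter, with the 4 saline arrays alone, with the replicate block, with array position as a block and with array weights. Leaving out 1 array gave 1 to 11 calls. Same-numbered arrays share only a number: under the replicate block 5268 features had an unadjusted p under 0.05, and deviations from the group means correlated at -0.08 in saline and -0.05 to 0.08 in OVA. For A_55_P2039284 the difference stayed between 1.48 and 1.78, and the limma adjusted p was 0.0597 without a filter, 0.154 with the replicate block and 0.0571 with array weights. The 20 named genes kept their direction and stayed without a call in every alternative that measured them, and no group member was called. Features higher at day 28 made up 47.7%, and 34.2% with spike-in scaling, under which the median of all features was -0.09. The streak kept gave 55.2%.

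Features 2-fold apart numbered 60 with normexp, 97 with the filter on all 12 arrays, 161 with the filter on the 4 saline arrays, 869 with the streak kept and 2035 without a filter. Detection was 73.0% for at least 3 saline arrays and 79.8% for at least 1. The median SD within a day was 0.108 with normexp and 0.125 to 0.141 without 1 saline array. In the latter case it rests on 1 pair of arrays, which by itself makes a median SD lower. The same sign was found for 60.4% with normexp and 56.4% to 61.5% without 1 saline array, lowest without day 14 replicate 2. Groups of 2 arrays limit the precision, and dim probes vary most.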
